A study of Mus musculus with 21 samples.

Results

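Male mouse germ cells carrying 1 wild-type Tex15 allele (heterozygous, HT) were set against cells carrying both (wild type, WT) shortly after birth, to ask whether the loss of a single copy alters genes or repeated elements. The comparison was defined by the 3 HT and 3 WT columns of the gene and repeat tables for this age, so it rests on 6 of the 21 libraries of the series. The age is postnatal day 2 in the labels, written D2.5 in the sample names. All cells were male germ cells of a mixed strain background, sorted by flow cytometry for an Oct4-GFP reporter that every group carries, from litters of heterozygous parents. The design text speaks of biological triplicates. How many pups went into a library is not given in the sources used here, so p-values measure the spread between these libraries. Knockout cells (KO) of the same age, also 3 libraries, are given beside the values as a reference.

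TEX15 is a nuclear protein of male germ cells. Mouse mutants link it to meiotic recombination and to the silencing of transposons, where it acts with the PIWI protein MIWI2 (gene Piwil4) in DNA methylation directed by small piRNAs. This methylation is laid down in prospermatogonia, the arrested male germ cells around birth, and L1 and IAP elements are its best known targets.

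In HT cells Tex15 itself fell, and no other gene and no repeat passed the test. Tex15 stood at 3762, 3119 and 3649 CPM (the usual depth-scaled unit, here relative to a library's gene counts after TMM scaling) in the 3 WT libraries. The HT libraries held 1498, 1835 and 1573 CPM. Each HT library thus lay below each WT library, with means of 1635 CPM (SD 177, n = 3) and 3510 CPM (SD 343, n = 3). This is a difference of -1.10 on the log2 scale, HT minus WT as throughout (SE 0.14), with an adjusted p of 0.00133 in edgeR's quasi-likelihood test.

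The HT level of Tex15 was 46.6% of WT, with a 95% interval of 38.0% to 57.2% that contains the 50% of 1 copy in a pair. Single HT libraries ranged from 42.7% to 52.3% of the WT mean. KO libraries kept 131, 125 and 86 counts, or 0.516% of the WT mean in CPM. In these bulk samples less RNA per cell and fewer expressing cells cannot be told apart. At the embryonic ages, where there is no WT group, HT cells held 886, 994 and 1082 CPM at E16.5 and 907, 979 and 988 CPM at E18.5, from tables that were scaled separately.

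**Figure D1:**
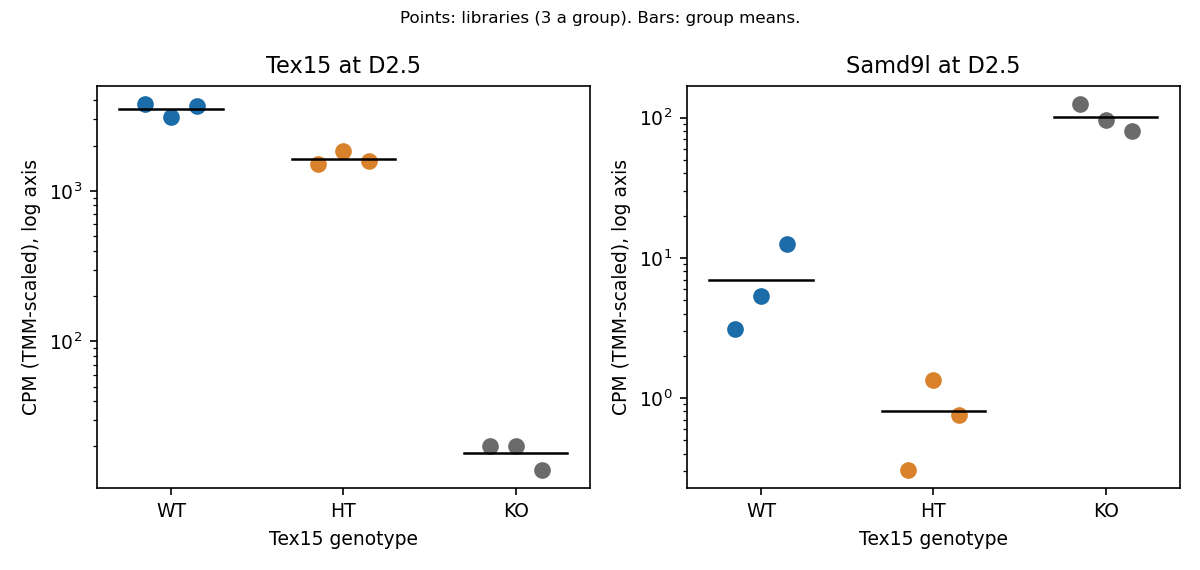
CPM on a log axis of Tex15 (left) and Samd9l (right) in each D2.5 library, by genotype, with bars for the group means. For Tex15 the HT libraries (1498 to 1835) lie below the WT libraries (3119 to 3762) and far above KO; for Samd9l the HT libraries (0.308 to 1.34) lie below WT (3.12 to 12.5) while KO (80.7 to 125) lies above both.

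The libraries carried the identity of germ cells. Dazl, an RNA-binding protein that germ cells need, had 3512 CPM in WT (SD 371, n = 3) and 3149 CPM in HT (SD 269.5, n = 3), and the tudor protein gene Tdrd1 834 CPM (SD 288) and 703 CPM (SD 87.1). Of 17 tested germ cell identity genes 0 passed, 9 lay above 0, the median log2 fold change was 0.01, and the groups overlapped for each of them. Pou5f1, the gene also called Oct4, was low in all 6 HT and WT libraries (0 to 3.28 CPM). Markers of other testis cells were low beside the summed 5880 to 7254 CPM of the identity genes, and their ranges overlapped between the genotypes. Their summed CPM ran from 100.4 to 213 in WT and 143 to 185 in HT for Sertoli cells, from 110 to 129 and 112 to 141 for Leydig cells, from 475 to 761 and 460 to 648 for stroma, and from 401 to 590 and 485 to 646 for endothelium, in which the ETS factor Erg alone held 358 and 401 CPM on average. For macrophages and blood the sums were 81.0 to 98.7 and 95.6 to 125, and 10 of the 22 marker genes, the haemoglobin genes and C1qa among them, were at 0 in all 6 libraries. The Leydig hormone gene Insl3 was at 0 as well. Of 57 such markers tested 0 passed, and 4 (7.02%) had an unadjusted p under 0.05, all of them higher in HT, beside 3.4% of all genes in either direction. The markers did not rise as a set. For Sertoli cells 8 lay above 0 and 7 below, for Leydig cells 5 and 6, and for stroma 5 and 12. For endothelium the counts were 5 and 4, and for macrophages and blood 4 and 1. Inhbb and Nr5a1, known from Sertoli and other gonadal support cells, had 20, 3 and 1 and 0, 2 and 17 counts in WT and 58, 50 and 27 and 28, 115 and 28 counts in HT. Flt1 of endothelium had 29.4, 13.4 and 26.1 CPM in WT and 42.2, 45.9 and 33.3 CPM in HT, and Mrc1 of macrophages 22.3, 31.6 and 26.2 CPM and 30.0, 59.4 and 49.5 CPM. Their part in other results was not tested. All 7 Y-linked genes were detected, and 0 passed, with log2 fold changes of 0.02 to 0.46 that all lay above 0. Xist, known for silencing an X chromosome in female cells, had 183 CPM in WT (SD 35.9, n = 3) and 160 CPM in HT (SD 43.7, n = 3).

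Gene totals were 6197559 to 7391401 counts per library, 3 counts were worth 0.403 to 0.486 CPM, and repeat names took 63.0% to 69.4% of all counts. Across 14367 genes, WT libraries resembled HT libraries (Spearman's rho 0.894 to 0.922) as much as one another (0.901 to 0.910). HT libraries resembled one another at 0.888 to 0.902, with HT replicates 1 and 3 at opposite ends of the third principal component (79.1 and -52.7).

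Beyond Tex15, the level of each gene in HT cells could not be told from WT at the precision of 3 libraries a group. Of 14367 genes tested, 1 passed at an adjusted p under 0.05 (0.00696%). At an unadjusted p under 0.05 there were 488 genes (3.4%), 274 higher and 214 lower in HT. The fold changes were centred at 0, with a median of 0.0058, 7275 genes above 0 and 7089 below. By limma-voom 1 gene passed as well, and by DESeq2 2, Tex15 and Samd9l. Without a filter on low counts 4 genes passed, namely Tex15, Samd9l, Napb and the olfactory receptor gene Olfr692.

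How large a change could hide depended on the level. The SEs of genes drew in part on other genes and on the KO libraries. They are thus not a gene's own spread among the HT and WT libraries alone. For the 3183 genes with an average log2 CPM over 6, the median SE was 0.23 and the 95% interval stayed within a 2-fold change in 94.9%. Between 3 and 6 the median SE was 0.49 and 19.9% of 5957 genes were bounded so. Under 3 it was 1.13, and only 3 of 5227 genes had such an interval. Among these, Vmn2r78 had no count in HT or WT and reached the filter through KO. Its interval of 0 to 0 therefore bounds no change. The median coefficient of variation among the HT libraries was 15.3% in the highest class and 72.6% in the lowest. Over all genes 29.3% were bounded within 2-fold and 61.0% within 4-fold.

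**Figure D2:**
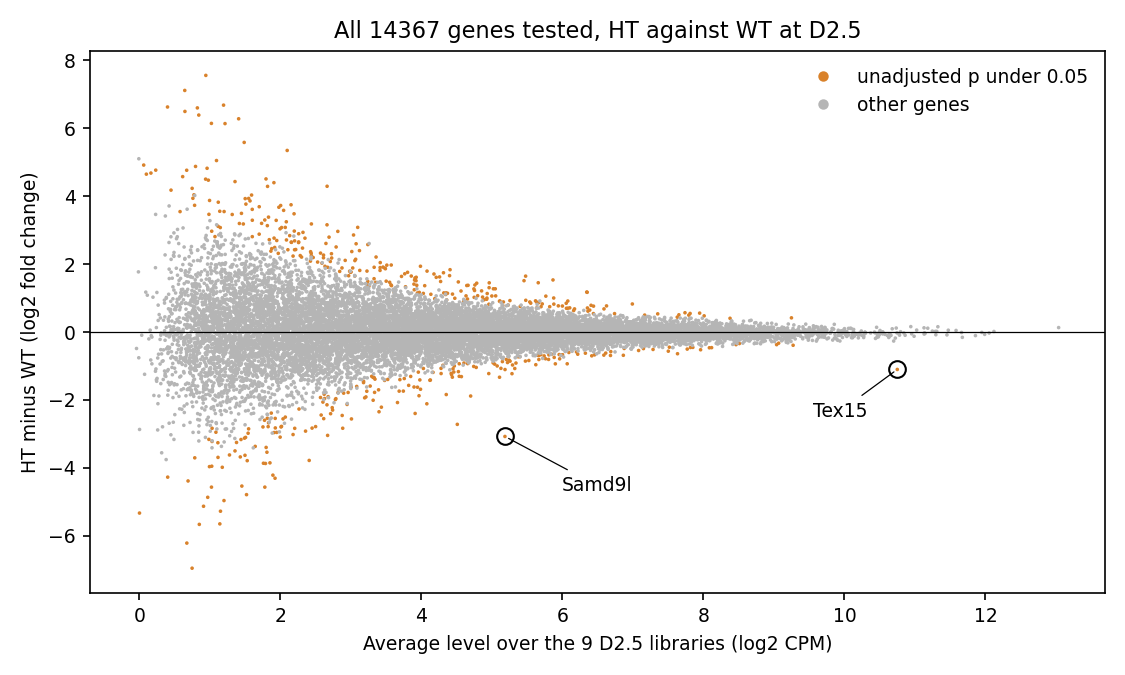
HT minus WT log2 fold change against average log2 CPM for the 14367 genes tested, with the 488 genes at an unadjusted p under 0.05 in orange. The cloud narrows with rising level, and Tex15 (-1.10), the gene that passed, lies outside it at the high end.

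Samd9l, an antiviral gene induced by interferon, came closest to passing after Tex15. It had 3.12, 5.35 and 12.5 CPM in WT, 0.308, 1.34 and 0.757 CPM in HT, and 125, 96.1 and 80.7 CPM in KO. HT was thus the lowest of the 3 genotypes, and the HT libraries, at 2, 10 and 5 counts, did not overlap with WT at 20, 33 and 87. The difference was -3.07 on the log2 scale (SE 0.56), and edgeR gave an adjusted p of 0.123. The KO libraries, in which the gene is high, entered the estimate of its spread. With the 6 HT and WT libraries alone the SE was 1.05 and the edgeR adjusted p 1.000. DESeq2, run on all 9 libraries, gave an adjusted p of 5.03e-04. Without WT replicate 1 the gene passed (-3.43, edgeR adjusted p = 0.0158), and without WT replicate 3, its highest WT library, the difference was -2.34 (edgeR adjusted p = 1.000).

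Gpr179, a receptor gene known from the retina, had the same order of genotypes. It had 12, 4 and 11 counts in WT, 0, 3 and 1 in HT and 256, 527 and 452 in KO, so that each HT library was at or under 3 counts. Its edgeR adjusted p for HT against WT was 1.000, and the gene reached the filter on low counts through its KO libraries.

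Of the genes higher in HT, the 10 with the smallest p were looked at one by one, though none passed. Napb, a factor of vesicle fusion, had 18.6, 38.2 and 22.8 CPM in WT and 110, 48.5 and 72.1 CPM in HT (log2 fold change 1.53, SE 0.35, edgeR adjusted p = 1.000). KO cells held 81.9, 74.6 and 56.2 CPM of Napb, and the WT libraries were the lowest 3 of the 9. Cacna1b, which encodes a neuronal calcium channel subunit, had 67.3, 46.8 and 42.8 CPM in WT and 90.4, 131 and 133 CPM in HT (1.18, SE 0.28), with KO at 57.0 to 87.5 CPM.

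Prkca, a protein kinase C gene, had 28.7, 17.5 and 26.8 CPM in WT against 44.7, 100.3 and 63.2 CPM in HT (1.51, SE 0.38). Cmas, which activates sialic acid for transfer to glycans, had 81.7, 99.3 and 71.6 CPM against 130, 173 and 145 CPM (0.82, SE 0.22). In KO cells Cmas was at 145, 149 and 148 CPM, near the HT libraries. For these 4 genes, chosen by their p, the HT libraries lay above the WT libraries without overlap, as they did for 4.31% of all genes tested, and the edgeR adjusted p was 1.000 for each.

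The other 6 genes named on this side were low or uneven. Dgcr14, a splicing-associated gene, ran from 2.75 to 4.61 CPM in WT and 8.94 to 22.4 in HT, Keg1 from 4.22 to 12.6 and 15.1 to 37.6, the orphan receptor gene Gpr63 from 1.30 to 3.75 and 6.93 to 25.8, and the secreted factor gene Crispld1 from 0.486 to 1.41 and 1.69 to 16.1. Brinp2 had 1, 0 and 2 counts in WT and 87, 33 and 19 in HT. For Bmp2, a secreted growth factor, 1 library set the mean: HT replicate 3 had 36.0 CPM and the other HT libraries 1.08 and 3.22 CPM, and WT reached 1.56 CPM.

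Among the genes with the smallest p below WT, Rpp14, a subunit gene of the tRNA-processing enzyme RNase P, had 11.4, 23.7 and 46.1 CPM in WT and 6.31, 10.1 and 6.21 CPM in HT (-1.84, SE 0.52, edgeR adjusted p = 1.000). Alad, a haem synthesis enzyme, had 11.7, 27.2 and 13.1 CPM against 6.31, 2.82 and 3.18 CPM (-2.08, SE 0.62). Sh3yl1 had at least 9.53 CPM in WT and 1.67 to 2.46 CPM in HT. The HT libraries of these 3, also chosen by p, lay below WT without overlap, as for 4.36% of all genes tested, and none passed.

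The other genes named on this side were lower in counts or less even. Frat2, a Wnt pathway regulator, ran from 14.3 to 22.5 CPM in WT and 1.69 to 4.85 in HT, and the Wnt receptor gene Fzd2 had 43, 23 and 68 counts in WT and 7, 1 and 1 in HT. Bet1, a SNARE of the early secretory pathway, ran from 12.2 to 49.9 CPM and 1.51 to 8.78, and the acyl-CoA synthetase gene Acsbg1 from 9.37 to 58.8 and 2.93 to 10.1, with overlapping groups. WT replicate 2 was the highest WT library for Frat2, Bet1, Acsbg1 and Alad.

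No gene of the machinery in which Tex15 works passed. Of 28 piRNA pathway genes tested 0 passed, 19 lay above 0 and 9 below, and the median log2 fold change was 0.05, beside 0.0058 over all genes. For 18 of them the 95% interval stayed within 2-fold. Piwil4, which encodes MIWI2, had 79.0, 28.0 and 56.2 CPM in WT and 57.1, 56.4 and 55.0 CPM in HT (0.05, SE 0.38). The groups overlapped, and the WT libraries were the more spread.

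Piwil2, the PIWI protein MILI of the cytoplasm, had 166, 248 and 227 CPM in WT and 266, 179 and 155 CPM in HT (-0.09, SE 0.23). Mael, needed for transposon silencing, was at 508 CPM (SD 113, n = 3) in WT and 512 CPM (SD 58.6, n = 3) in HT. The helicase gene Ddx4 was at 622 and 594 CPM, and the piRNA helicase gene Mov10l1 at 489 and 434 CPM. The germ granule genes Asz1 (0.05), Tdrd9 (0.15) and Rnf17 (0.05) had SEs of 0.16 to 0.21.

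Btbd18, a nuclear regulator of piRNA precursor transcription, and Tdrd12, a factor of piRNA production, had an unadjusted p under 0.05. They were 2 of the 28 genes, beside 3.4% of all genes. Btbd18 had 56.5, 37.4 and 35.3 CPM in WT and 51.1, 69.0 and 108 CPM in HT (0.82, SE 0.32), and Tdrd12 had 52.3, 81.3 and 44.8 CPM against 77.6, 113 and 101 CPM (0.71, SE 0.31). The groups overlapped for both genes and the edgeR adjusted p was 1.000. At the other end stood Gtsf1, a partner of PIWI proteins in silencing, with 55.9, 84.3 and 68.6 CPM in WT and 43.1, 47.4 and 63.6 CPM in HT (-0.44, SE 0.29).

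Of 15 DNA methylation genes 0 passed, with 9 above 0 and a median of 0.04. Dnmt3a, a de novo methyltransferase, was at 224 CPM (SD 36.7, n = 3) in WT and 227 CPM (SD 52.1, n = 3) in HT. The maintenance methyltransferase gene Dnmt1 had 402, 266 and 366 CPM in WT and 501, 339 and 474 CPM in HT (0.35, SE 0.22), with overlapping groups. Dnmt3l, the cofactor of de novo methylation, was low in both (1.62 to 2.81 CPM and 0.134 to 7.42 CPM). Hells was at 797 and 821 CPM, and the demethylation enzyme genes Tet1, Tet2 and Tet3 had log2 fold changes of 0.22, 0.06 and 0.32 (SEs of 0.21 to 0.32).

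**Figure D3:**
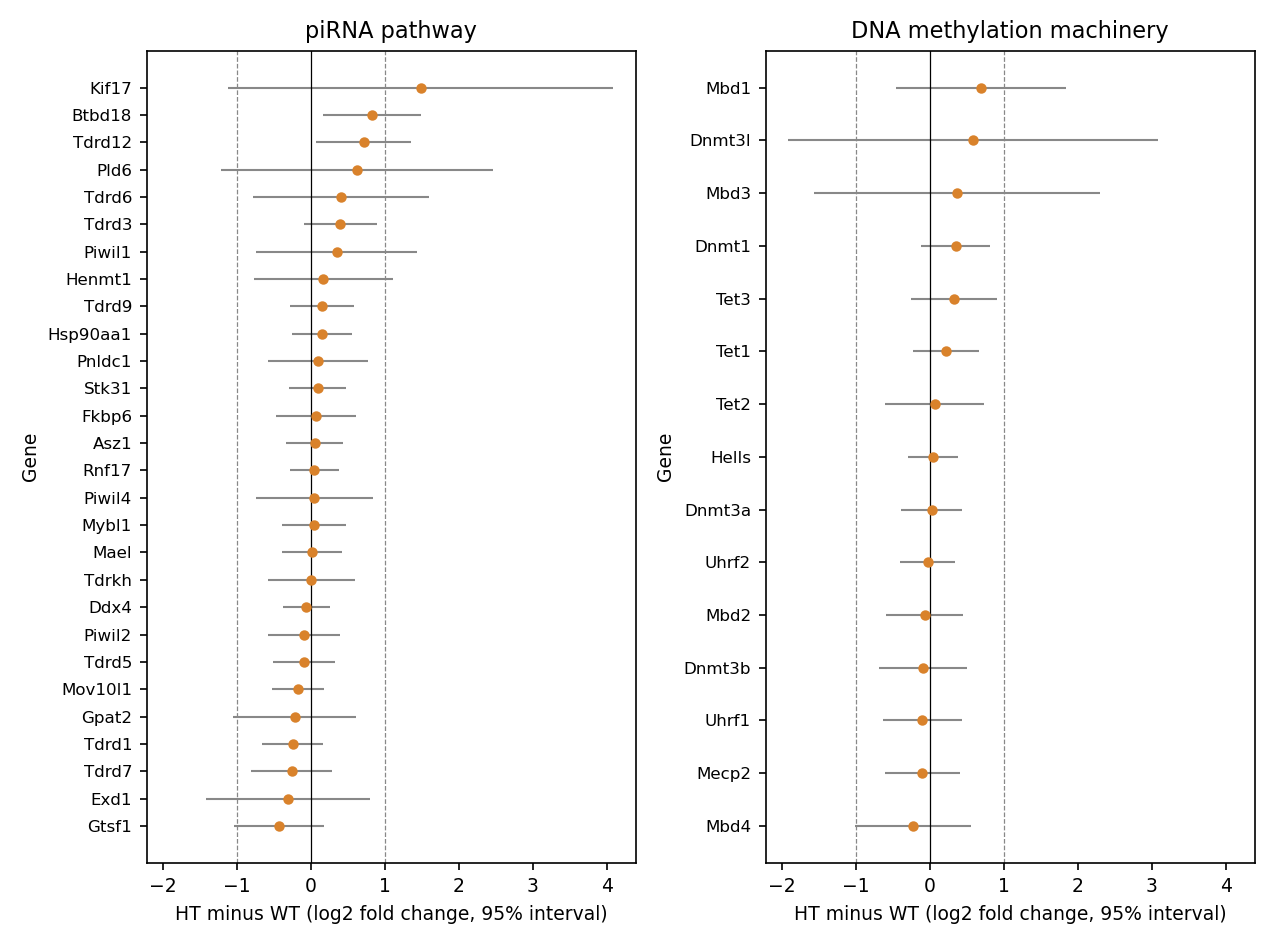
HT minus WT log2 fold change with its 95% interval for the 28 piRNA pathway genes (left) and 15 DNA methylation genes (right), with dashed lines at a 2-fold change either way. The estimates gather at 0 (medians 0.05 and 0.04), and the widest intervals belong to genes of few counts such as Kif17 and Dnmt3l.

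On the recombination side, Brca2, a gene of DNA repair by recombination, was at 1002 CPM (SD 50.2, n = 3) in WT and 959 CPM (SD 95.1, n = 3) in HT, and the groups overlapped for the meiotic recombinase gene Dmc1 (0.20, SE 0.30). Of 29 meiotic prophase genes 0 passed and 14 lay above 0, with a median of -0.01. The most abundant members, Smc1b of meiotic cohesin (-0.05, SE 0.15) and the synaptonemal complex gene Sycp1 (-0.07, SE 0.19), were close to WT. Tex12, another synaptonemal complex gene, had 106, 148 and 110 CPM in WT and 64.4, 99.0 and 73.5 CPM in HT (-0.62, SE 0.26, unadjusted p = 0.026, edgeR adjusted p = 1.000).

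Genes linked to DNA methylation did not pass either, and methylation itself was not measured here. Of 24 germline genes known to be silenced by promoter methylation in other tissues 0 passed, with 12 above 0 and a median of -0.02. These genes were already expressed in WT, at a summed 9860 to 11168 CPM, against 9413 to 10307 CPM in HT. Their levels therefore cannot show whether methylation differed. One of them, Tex19.2, had 25.5, 29.3 and 27.1 CPM in WT and 8.32, 12.1 and 12.1 CPM in HT (-1.33, SE 0.44, unadjusted p = 0.006, edgeR adjusted p = 1.000), with KO at 20.5 to 35.6 CPM. HT lay below WT without overlap for 4.36% of all genes tested, and for Tex19.2 it lay below all 6 other libraries. Its paralog Tex19.1 was at 176 and 193 CPM (0.13, SE 0.20), and how reads shared by such copies were counted is unknown. Of 24 imprinted genes 0 passed (median -0.02), with Igf2 at 400 and 423 CPM.

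Spermatogonial and cell state lists showed no member that passed. The medians were -0.06 over 22 genes of undifferentiated spermatogonia, 0.04 over 11 genes of differentiating spermatogonia, 0.16 over 23 fetal germ cell and pluripotency genes, -0.06 over 30 cell cycle genes, -0.02 over 18 p53 targets, -0.20 over 23 immediate early and stress genes and -0.06 over 25 genes of H3K9 methylation and KRAB repression. The growth regulator Ccnd2 was at 696 CPM (SD 148, n = 3) in WT and 606 CPM (SD 49.3, n = 3) in HT. The proliferation marker Mki67 was at 4025 CPM (SD 78.4, n = 3) and 3834 CPM (SD 745, n = 3), so its HT libraries were spread. The chromatin remodeller gene Atrx had 1368, 1422 and 1420 CPM in WT and 1353, 1316 and 1290 CPM in HT (-0.09, SE 0.14). Its HT libraries lay below WT without overlap by a narrow margin, as for 4.36% of all genes tested. Members with an unadjusted p under 0.05 were Bcl6b of undifferentiated spermatogonia (-0.79), the imprinted antisense gene Nespas (2.21) and the immediate early gene Fosb (1.06). The p53 target Eda2r (5.83 to 21.2 CPM in WT, 3.70 to 6.45 CPM in HT) and the meiotic gene Meiob (1.37) were others. For Meiob HT replicate 3 alone held 94.2 CPM and the other 5 libraries at most 31.1 CPM. These were 1 gene of each list, or 2 of 29 meiotic genes with Tex12, beside 3.4% of all genes. The medians were 0.03 over 14 tested partners and relatives of Tex15, 0.03 over 77 ribosomal protein genes, 0.04 over 86 respiratory chain genes, -0.0020 over 11 histone genes and 0 over 47 olfactory and vomeronasal receptor genes, with 0 passing. Of the receptor genes 22 lay above 0 and 23 below. Some, such as Vmn2r78, had no count in HT or WT and reached the filter through KO. Their fold change of 0, which set the median, therefore measures nothing. Over the receptor genes with at least 50 counts in 3 libraries the median was 0.60. Over 298 numbered Zfp zinc finger genes the median was 0.02, with 11 at an unadjusted p under 0.05, beside 3.4% of all genes.

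The interferon list had the lowest median, -0.58 over 17 tested genes, with 6 above 0 and 11 below. Its members were of few counts, since their summed level was 145 to 189 CPM in WT and 129 to 175 CPM in HT, and 0 passed. Besides Samd9l, Irf9, a transcription factor of the interferon response, had an unadjusted p under 0.05 (-1.99, SE 0.85), with WT at 2.65, 5.67 and 26.1 CPM and HT at 2.62, 3.90 and 2.12 CPM. The WT mean of Irf9 rested on replicate 3, and the groups overlapped. Samd9l and Irf9 were 2 of the 17 genes, beside 3.4% of all genes at that p. Stat2, a transcription factor of the same response and among the more abundant members, lay above 0 (0.39, SE 0.42). The median was -0.13 with the 6 HT and WT libraries alone and 0.04 over the members with at least 50 counts in 3 libraries. It was -0.99 by limma-voom. Leaving out a library gave -0.75 without HT replicate 3, -0.53 without WT replicate 3, -0.07 without HT replicate 1, -0.10 without WT replicate 1, -0.21 without WT replicate 2 and -0.35 without HT replicate 2.

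**Figure D4:**
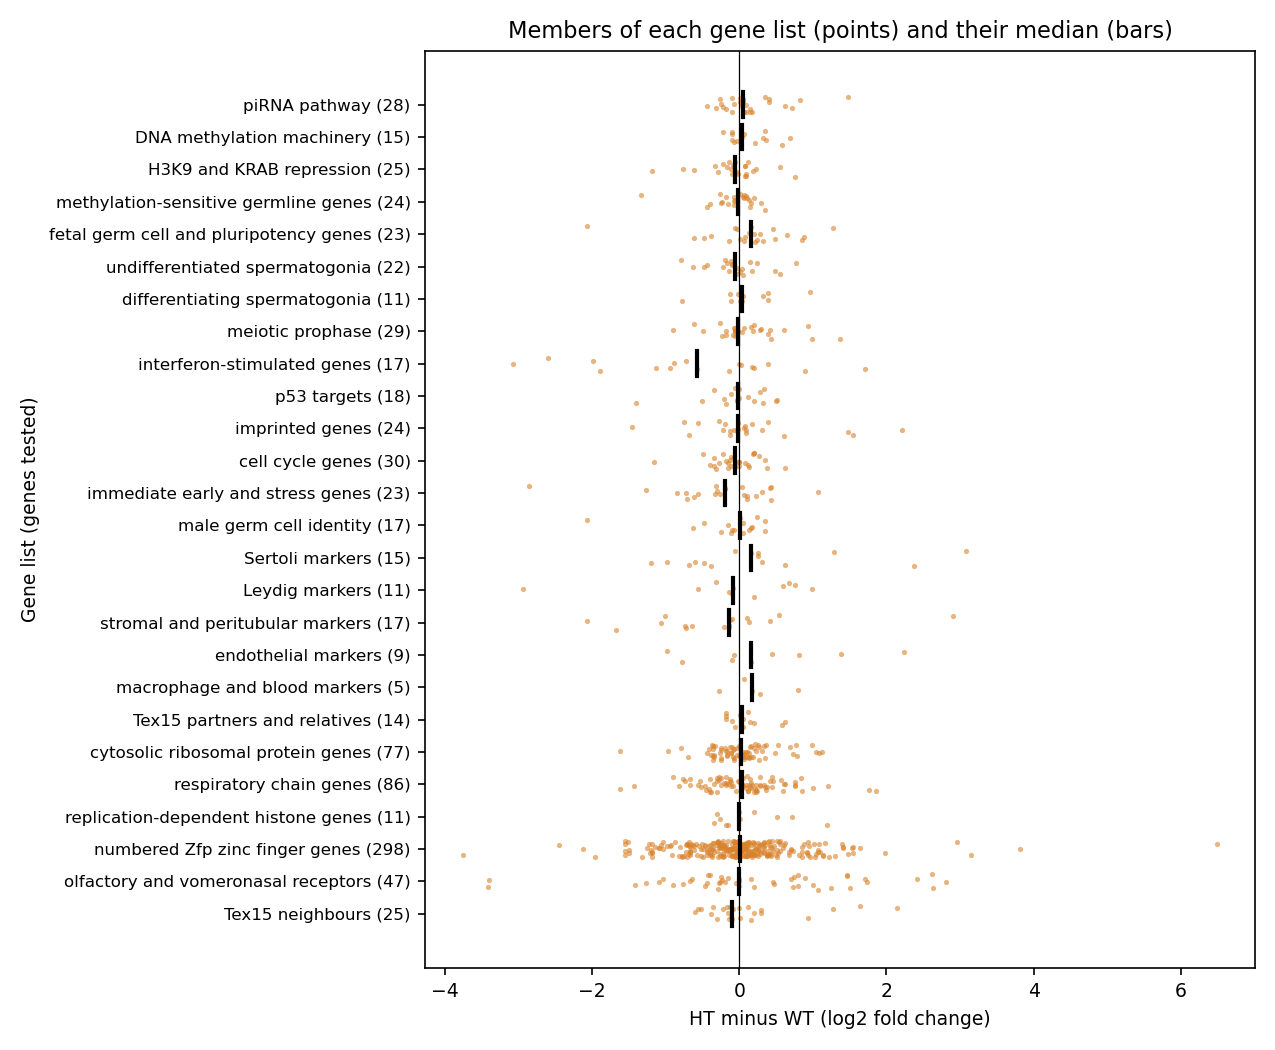
HT minus WT log2 fold changes of the members of each gene list (points) with the list's median (bar), and the number of genes tested in parentheses. All medians but that of the interferon list (-0.58) lie between -0.20 and 0.17, and lists of abundant genes are the narrowest.

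Genes around Tex15 were examined because the background is mixed, so that chromosome segments can travel with the targeted allele. Of 33 other protein-coding genes within 5 Mb of Tex15, 25 were tested and 0 passed, with 11 above 0, 14 below and a median of -0.09, which was 0.08 without WT replicate 3. The nearest on each side, Purg (0.30, SE 0.35) and the phosphatase subunit gene Ppp2cb (-0.09, SE 0.29), had overlapping groups. Dusp4, a MAP kinase phosphatase, and Mfhas1 had an unadjusted p under 0.05 (2.14, SE 0.90, and 1.65, SE 0.73). They were 2 of the 25 tested, beside 3.4% of all genes. HT replicate 1 was the highest library for both, at 24.2 and 23.6 CPM, against 0.162 to 4.84 CPM and 2.27 to 6.09 CPM in WT.

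No repeat family passed. For the main transposon families the HT libraries lay within the WT range or on both sides of it. L1, the main family of mobile LINE elements, had 46.4, 62.8 and 39.3 alignments per gene count in WT, 46.4, 53.4 and 54.9 in HT, and 188, 140 and 145 in KO, with gene counts scaled by TMM. Family tables count alignments, of which a read can have many, so these ratios exceed 1. HT and WT overlapped for L1, and each KO library lay above all 6. The HT minus WT log2 fold change of L1 was 0.06 (SE 0.24, 95% interval -0.41 to 0.53).

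ERVK, the retrovirus family that holds IAP, had 0.815, 0.775 and 0.762 alignments per gene count in WT, 0.707, 0.914 and 0.826 in HT and 3.08, 3.68 and 3.58 in KO (HT minus WT 0.06, SE 0.22). ERV1, the family of gammaretroviruses, had 40284, 35728 and 39729 CPM in WT and 32596, 41588 and 39977 CPM in HT (-0.02, SE 0.20), with KO at 98181 to 109311 CPM. For both families the HT libraries spanned the WT libraries. ERVL (0.03), MaLR (0.15), the SINE families Alu (0.05), B2 (-0.0019) and B4 (0.08), and Satellite (0.02) had SEs of 0.19 to 0.21.

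Of 52 families tested 0 passed (0%) in edgeR, DESeq2 and limma-voom, and 0 had an unadjusted p under 0.05 in any of the 3. The 95% interval stayed within 2-fold for 47 of them. In edgeR the spread of each family was taken from families of like abundance, so these errors do not measure a family's own replicate spread. Limma-voom gave an interval of -0.33 to 0.50 for L1 and -0.34 to 0.44 for ERVK.

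**Figure D5:**
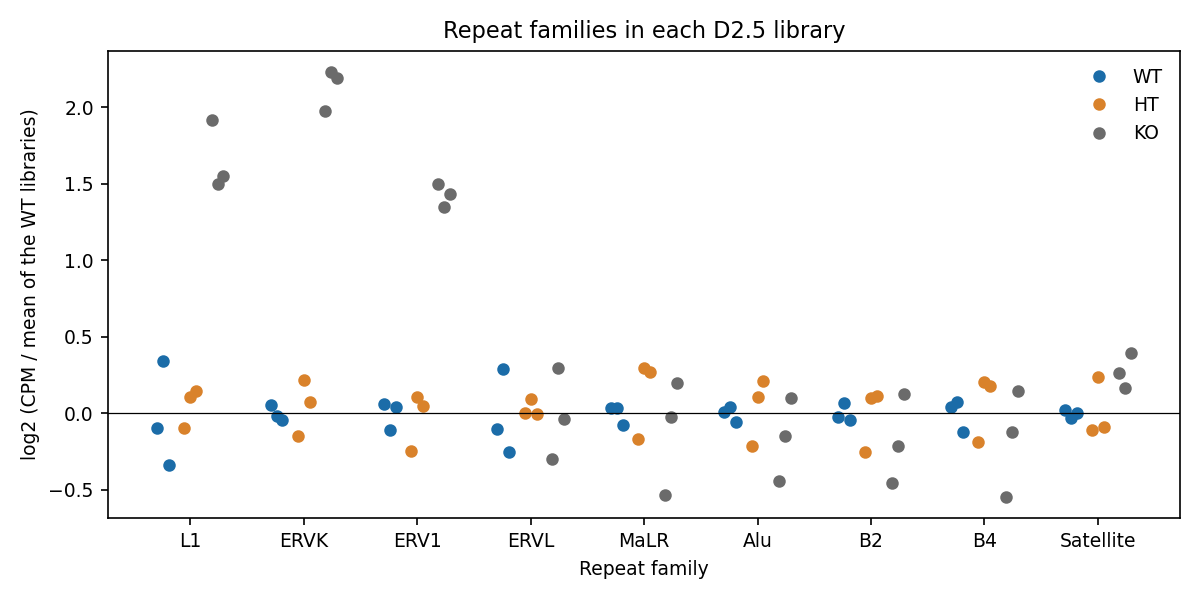
log2 ratio of each D2.5 library to the mean of the WT libraries for 9 repeat families, in CPM scaled to gene counts. The ranges of the WT and HT points overlap in each family, while the KO points of L1, ERVK and ERV1 lie above both.

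Single repeat names are counted in the gene tables. As for families, edgeR took the spread of each name from names of like abundance. The SEs and intervals of names thus do not measure a name's own replicate spread. Of 1110 names 0 passed (0%) in edgeR, DESeq2 and limma-voom, while 16 (1.44%) stood at an unadjusted p under 0.05 by edgeR, 12 higher and 4 lower, with 17 by DESeq2 and 13 by limma-voom. The 6 young mouse L1 names had log2 fold changes of 0.03 to 0.16 and a median of 0.07. L1Md_A, an active subfamily, had 3013, 3261 and 2400 CPM in WT, 2388, 3163 and 3615 CPM in HT and 10953, 8076 and 8625 CPM in KO (HT minus WT 0.08, SE 0.22). HT replicate 1 and WT replicate 3 were its lowest libraries, HT replicate 3 lay above the WT range, and all 3 KO libraries lay far above. L1Md_T, another active subfamily, had 21461, 38321 and 21908 CPM in WT, 34157, 21854 and 29174 CPM in HT and 19149 to 37826 CPM in KO (HT minus WT 0.06, SE 0.22), so that the 3 genotypes overlapped.

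IAPEz-int, the internal part of a mobile IAP, had 547, 489 and 480 CPM in WT, 439, 570 and 526 CPM in HT and 1575, 1676 and 1577 CPM in KO (0.02, SE 0.22). Over 16 IAP names the median was 0.02, over 5 of ETn and MusD 0.10, over 9 of MMERVK10C and RLTR10 0.10, over 7 of MERVL 0.07, over 98 of MaLR 0.09 and over 27 rodent SINE names 0.03. All lie beside a median of 0.06 over the 1110 names. Within these groups the 95% intervals, which rest on that shared spread, stayed within 2-fold for 15 of 16 IAP names and all 27 SINE names.

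The shift of 0.06 moved with single libraries. Of the 1110 names 791 lay above 0, yet leaving out HT replicate 1 gave a median of 0.17, WT replicate 2 one of 0.13, HT replicate 2 one of 0.01, HT replicate 3 one of -0.0032 and WT replicate 3 one of -0.011. Scaled to the repeat totals themselves it was 0.0012. HT replicate 1 had the lowest repeat share of the 6 libraries (63.0%) and HT replicate 3 the highest (69.4%), and the part of this in the shift was not tested.

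One of the smallest p-values belonged to MURVY-int, a retrovirus known from the Y chromosome. It had 97.4, 83.3 and 64.2 CPM in WT, 101, 137 and 198 CPM in HT and 77.1 to 121 CPM in KO. Each HT library lay above each WT library (0.83, SE 0.27), as for 2.25% of the 1110 names, and the edgeR adjusted p was 0.801. The tRNA names tRNA-Ser-TCY and tRNA-Pro-CCY had a smaller p at the same adjusted p, from 11, 112 and 30 and 1, 1 and 6 counts in WT and 10, 12 and 5 and 42, 22 and 18 counts in HT.

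Genes that differed between KO and HT cells of other, embryonic animals were read out in this contrast. At E18.5, 377 genes other than Tex15 were higher in KO than in HT by edgeR and 11 lower, in libraries that share no sample with D2.5. Of the 377, 182 could be tested here, and 0 passed in HT against WT by edgeR, against 1 by DESeq2, Samd9l. Their median log2 fold change was 0.10 (106 above 0 and 75 below), beside 0.0058 over all genes. The filter on low counts read the KO libraries too, and with the HT and WT libraries alone 139 of the genes were tested, at a median of 0.07. Leaving out a library gave medians of 0.03 (without HT replicate 2) to 0.21 (without WT replicate 1). Of the 111 repeat names raised in KO at E18.5, 106 were tested, 0 passed, and the median was 0.10, beside 0.06 over all names. At an unadjusted p under 0.05 stood 3 of them (2.83%), all higher, beside 1.44% of all names.

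At an unadjusted p under 0.05 stood 23 of the 182 genes (12.6%), 16 higher and 7 lower in HT, beside 3.4% of all genes. With the 6 HT and WT libraries alone the count was 6 of 139 (4.32%, beside 3.51% of all genes of that fit), and by limma-voom 5 of 182 (2.75%, beside 2.86%). By DESeq2 it was 21 of 182 (11.5%, beside 4.86%). With at least 50 counts in 3 libraries it was 9 of 108 (8.33%, beside 2.96%). Leaving out a library gave 8.24% (without WT replicate 3, beside 3.32%) to 14.8% (without WT replicate 1, beside 4.08%). All but the fit of 6 libraries included KO. The median level of the 182 genes was 5.15 CPM in WT and 5.70 CPM in HT. The smallest adjusted p at E18.5 was shared by Gpr179, whose counts here were lower in HT than in WT as given above, and Prom1, which encodes a membrane protein of stem and other cells. Prom1 had 6, 7 and 24 counts in WT, 65, 46 and 63 in HT and 21, 35 and 38 in KO (HT minus WT 2.20, SE 0.87, edgeR adjusted p = 1.000). IAPLTR1_Mm, an IAP long terminal repeat raised at E18.5, had 63.6, 50.6 and 50.4 CPM in WT and 41.0, 70.2 and 52.6 CPM in HT, against 270 to 295 CPM in KO.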

How the data were processed

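RNA was taken with a PicoPure kit and amplified and made into libraries with NuGEN Ovation kits, per the labels. The tables the authors deposited hold whole-number counts for 24495 genes, 1217 repeat names and 53 repeat families. STAR, Bowtie, featureCounts, edgeR and mm9 are named per the submitters' processing notes; which step each made, and its version, is not stated there. Gene counts were 6197559 to 7391401 per HT or WT library, so 3 counts, the limit of detection, came to 0.403 to 0.486 CPM; this limit covers counting error only.

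Genes were tested with edgeR 4.0.16 in R 4.3.3 (filterByExpr with a minimum count of 10 and total of 15, TMM factors, two-sided quasi-likelihood tests, Benjamini-Hochberg adjustment, threshold 0.05). All 9 D2.5 libraries entered 1 fit, in which the KO libraries bear on the spread, the scaling and the filter on low counts. Repeats with at least 10 reads in 3 libraries were tested likewise, with the genes' library sizes and factors. DESeq2 1.42.0, limma 3.58.1 (voom), other factors, filters and sizes, a replicate block and leaving out each library were alternatives. The test was tried on simulated data of the same size. It recovered 13 of 99 genes given a 2-fold change in HT and 42 of 97 given a 4-fold change. There were 2 false calls. The changed genes were drawn at random over all levels, with means and spread taken from the fit of all 9 libraries. For such a draw most changes of 2-fold were missed, and recovery by level was not examined. Figures used matplotlib 3.10.9.

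Members and gene lists were chosen with earlier results of these data known. Named genes were Tex15, up to 15 passing genes per direction with the largest change, otherwise the 10 with the smallest p at an average log2 CPM of at least 1, up to 4 passing or the 2 most abundant members of each list, and all members of the piRNA, methylation and partner lists; predicted gene models were not named. List members with an unadjusted p under 0.05, Tex19.1, other cell markers and the genes and repeats from E18.5 were named after their values were seen. RefSeq genes of GRCm38.p6 gave the neighbours. Same-numbered HT and WT libraries did not deviate together. Some list members are not reported here.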

Additional observations from a re-analysis of the deposited data

How the results depend on the processing

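Tex15 passed under every setting run, with a log2 fold change of -1.19 to -1.04 when each library was left out in turn. The number of genes that passed was 4 without a filter on low counts, 2 in DESeq2, and 1 to 2 when a library was left out (2 without WT replicate 1, Samd9l being the other). Among the members of the gene lists 0 passed, against 2 without a filter, 1 in DESeq2 and 0 to 1 when a library was left out. For families, names and the neighbours of Tex15 the count was 0 under each setting. Same-numbered HT and WT libraries did not deviate together (correlations of deviations of -0.028, -0.022 and -0.013). This cannot tell whether they shared a litter or a preparation. With the replicate number as a block Tex15 was at -1.11, 1 gene, 0 families and 0 names passed, and 430 genes had an unadjusted p under 0.05. Of 3524 single values, 0 that were called reversed and 251 uncalled ones changed sign; 4 gained a call (Samd9l in 3 settings, Napb without a filter). Of 351 list medians 30 moved by more than the spread between libraries. Of the genes raised in KO at E18.5, alternatives added after seeing the data put 5 to 27 at an unadjusted p under 0.05. Precision was lowest for genes under an average log2 CPM of 3, where the interval was within 2-fold for 3 of 5227. These include Vmn2r78, which had no count in HT or WT, so that its interval bounds no change. The cause of these differences was not tested.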
